A study of Mus musculus with 6 samples.

Results

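Signals of the Wnt ligands, their receptors, their antagonists and the factors that act with them were compared between pRb-expressing and pRb-deficient mouse osteoblasts. A list of 48 gene symbols defined the group. The array reads each transcript with sets of short probes, and each gene was represented by its brightest probe set, by mean signal over the 6 arrays, among those annotated with its symbol alone. Such a probe set was found for 47 of the 48 genes, out of 18193 genes with a symbol of their own on the array. Tcf7 was not analysed here. Wnt3 did not exceed a signal of 32, a level near background, on any array and was not tested, so 46 of these genes and 16308 genes in all were tested.

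Values are MAS5 signals, in arbitrary units on a linear scale. The 6 arrays came from 3 pRb-expressing cultures (genotype Wild type) and 3 pRb-deficient cultures (genotype Rb Knockout) of MC3T3 cells, here osteoblasts from the calvarial bone of embryonic day 18.5 mice that were immortalized with the 3T3 protocol, a schedule of passages every 3 days. The mice carried flox19-RB1, in which a part of the Rb1 gene can be excised by Cre recombinase, on a C57BL/6 background. They had been crossed to lines transgenic for 3.6-Col1a1-Cre or 2.3-Col1a1-Cre, in which fragments of the type I collagen promoter drive Cre in cells of the osteoblast lineage. Cells were taken from F2 mice of F1 parents mated with each other, and the controls were littermates. The sources do not state which Cre line the cells came from or whether the controls carried Cre. Nor do they state whether the 3 cultures of a group were separate lines or animals. The sample titles call the cultures biological replicates. The p-values therefore rest on the spread between cultures whose independence is not known.

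Wnt proteins are secreted ligands that bind Frizzled receptors together with the co-receptors Lrp5 and Lrp6, or with kinases such as Ror2. In the canonical branch, binding stops the Axin-based destruction complex from degrading β-catenin, which then enters the nucleus and activates genes with TCF and LEF factors. Secreted antagonists act outside the cell, Sfrp proteins and Wif1 by binding the ligands, and Dkk1 and sclerostin, the product of Sost, by binding the co-receptors. R-spondins act through Lgr4 and Lgr5 to keep Frizzled receptors at the cell surface. In bone, canonical signalling favours osteoblast differentiation and matrix formation, and sclerostin from osteocytes restrains it.

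The Rb1 signal was between 1105.9 and 1123.7 in pRb-expressing and between 123.5 and 143.1 in pRb-deficient cultures. Where its probes lie relative to the excised part was not examined. In pRb-deficient cultures Xist was higher, and lower signals were found for the Y-linked genes Uty, Kdm5d and Eif2s3y, so line of origin and pRb status cannot be told apart on these arrays. All 8 osteoblast markers tested (Col1a1, Col1a2, Sp7, Alpl, Ibsp, Sparc, Postn and Pth1r) passed the test as lower (5 with chromosome medians removed), and their summed signal was 80552.6 to 89110.2 in pRb-expressing and 39948.6 to 54496.9 in pRb-deficient cultures. The defining marker Ibsp was at or below 9.2 in every pRb-deficient culture. Among markers of other cells, 3 of 6 mesothelial genes (Msln, Bnc1 and Krt19) passed as higher, with a summed signal of 166.8 to 179.0 against 2712.4 to 3374.7 for the list, and 3 of 6 smooth muscle and pericyte genes tested (Tagln, Cnn1 and Cspg4) passed as higher, with sums of 23614.2 to 26204.4 against 28922.8 to 34490.7. The other mesothelial markers Wt1, Upk3b and Lrrn4 were at or below 34.0 in pRb-deficient cultures and did not pass. In pRb-expressing cultures Wt1 read 20.0 to 38.6, Lrrn4 24.5 to 59.9 and Upk3b 32.6 to 80.6. Upk3b thus fell, to 12.7 to 22.9 (adjusted p = 0.111, limma), and passed as lower with its chromosome's median subtracted (adjusted p = 0.0458, limma). Myh11, a defining marker of smooth muscle, did not exceed 25.8 on any array. The smooth muscle actin gene Acta2, the largest part of that smooth muscle sum, read 18083.8 to 20447.4 in pRb-expressing and 15206.1 to 17741.0 in pRb-deficient cultures (log2 fold change −0.24, adjusted p = 0.081, limma), and passed as lower with its chromosome's median subtracted (adjusted p = 0.0231, limma). The pericyte gene Rgs5 read 111.3 to 135.1 against 87.7 to 105.8 and did not pass (adjusted p = 0.194, limma). Other lists also held genes that passed, as did 41.9% of all genes. Of 8 chondrocyte genes 2 were higher and 3 lower, and of 7 osteocyte genes 2 were higher and 1 lower. Of 5 hematopoietic genes 2 were higher, and of 5 suture and periosteal genes 1 was higher and 1 lower. Lower were 2 of 5 epithelial, 1 of 5 adipocyte and 1 of 4 skeletal muscle genes, and 0 of 4 endothelial genes passed in limma. The part of these shifts in the differences described here was not tested, and fewer cells of a type cannot be told apart from less RNA per cell in such bulk samples.

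Wnt genes differed between the groups in both directions. Of the 46 genes tested, 25 (54.3%) passed an adjusted p under 0.05 in limma, a linear model fitted to log2 signals of the whole array with values under a floor of 32 set to 32, against 41.9% of all genes tested. In pRb-deficient cultures 11 of them were higher and 14 lower, where 18.5% of all genes were higher and 23.4% lower. The 20 genes that passed and also differed at least 2-fold made up 43.5% of those tested, against 15.6% of all genes. The signals of the groups did not overlap for 29 Wnt genes (63.0%), against 52.4% of all genes. The 29 were the 25 that passed and 4 that did not, Fzd4, Ror2, Kremen1 and Axin1. The members were chosen with earlier results of these data known, so these shares and those by role below describe the list and do not test it. The median log2 fold change, always given here as pRb-deficient over pRb-expressing, was −0.04 over the 46 genes and −0.09 over all genes, and the median size of the change was 0.81 and 0.39. With the median change of each gene's chromosome subtracted, 18 Wnt genes were higher and 14 lower. The share of higher genes among those that passed was thus 44.0% as fitted and 56.25% after subtraction. The medians were subtracted as fixed values, without an error of their own. Of the 7 genes gained as higher, Sost, Wnt16 and Wnt2 were above 32 on 1 array each, so their calls come from the subtraction and not from a measured difference.

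**Figure D1:**
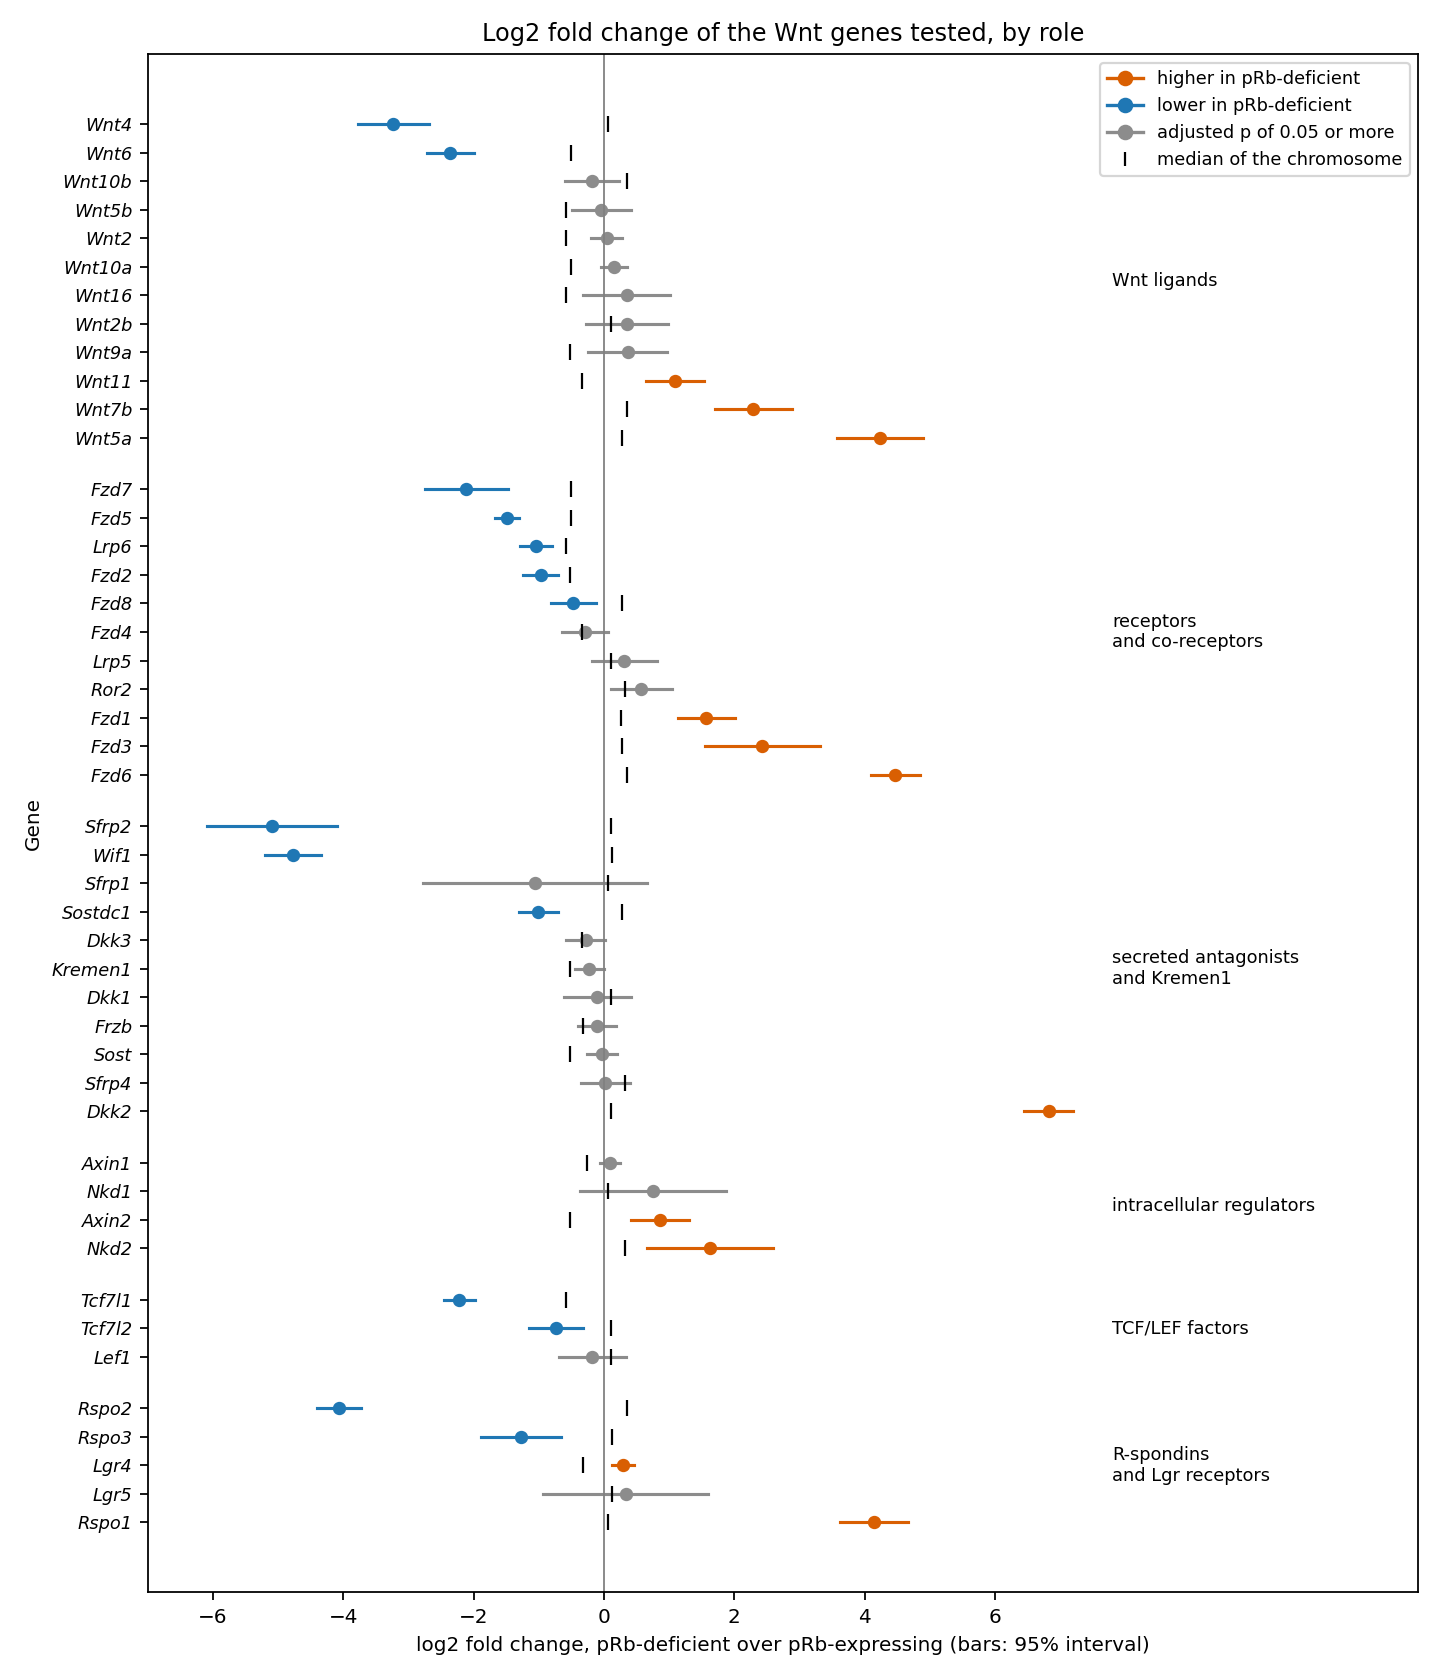
Log2 fold change (x axis) of each of the 46 Wnt genes tested, grouped by role, with 95% intervals from limma as bars and the median of the gene's chromosome as a vertical tick. Genes that passed an adjusted p under 0.05 are coloured (11 higher, 14 lower), and the values run from −5.09 for Sfrp2 to 6.83 for Dkk2. Where every array of a group was at or below 32, as for Dkk2, the interval holds no spread of that group.

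Of 12 Wnt ligands tested, 3 were higher (Wnt5a, Wnt7b and Wnt11), 2 were lower (Wnt4 and Wnt6) and 7 did not pass. The share of ligands that passed, 41.7%, was close to the 41.9% of all genes. Wnt5a, the prototype of ligands that signal without β-catenin, had signals of 65.6, 47.1 and 94.8 in pRb-expressing and 1565.6, 1178.4 and 1056.9 in pRb-deficient cultures. Every pRb-deficient culture lay far above every pRb-expressing one. The difference was 18.8-fold, or 4.23 on the log2 scale (standard error 0.28, adjusted p = 6.13e-05, limma). Another pair of Wnt5a probe sets showed log2 fold changes of 3.08 and at least 3.00 and also passed, while a dim one did not (0.08, adjusted p = 0.855, limma). Wnt7b, a ligand that acts in bone formation and angiogenesis, read 355.7, 418.4 and 355.5 in pRb-expressing and 1241.7, 1935.9 and 2586.1 in pRb-deficient cultures. The groups were apart, and the pRb-deficient cultures were spread over a wider range. Its log2 fold change was 2.29 (standard error 0.25, adjusted p = 0.000522, limma), and that of its second probe set was at least 4.44. Wnt11, a ligand best known for cell polarity and migration, had lower signals of 91.1, 95.1 and 123.2 against 222.3, 231.2 and 199.9. All pRb-deficient values lay above the pRb-expressing ones, a 2.13-fold difference (log2 fold change 1.09, standard error 0.19, adjusted p = 0.00406, limma).

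Wnt4 and Wnt6 went the other way. Wnt4, which takes part in kidney and gonad development and is also made by bone-forming cells, had signals of 356.3, 326.8 and 357.9 in pRb-expressing and 29.3, 49.1 and 24.6 in pRb-deficient cultures. Since all but 1 of the pRb-deficient values were at or below the floor of 32, the fold is a lower bound, at least 9.39-fold lower (log2 fold change −3.23, standard error 0.23, adjusted p = 8.01e-05, limma). A second, dimmer Wnt4 probe set did not pass, with a log2 fold change of −0.63 (adjusted p = 0.0817, limma). Wnt6, a canonical ligand of epithelia and early mesoderm, read 778.6, 873.4 and 999.5 in pRb-expressing and 150.0, 198.8 and 169.8 in pRb-deficient cultures. The groups were separate, 5.12-fold lower without pRb (log2 fold change −2.36, standard error 0.15, adjusted p = 5.37e-05, limma), and the second probe set fell by at least 1.13. With the median of its chromosome subtracted, Wnt6 passed with its brightest probe set but not with the second (−0.63, adjusted p = 0.138, limma). Its neighbour on chromosome 1, Wnt10a, had 728.6, 791.1 and 721.9 against 833.1, 890.4 and 771.6. These overlapped and did not pass (log2 fold change 0.15, 95% interval −0.05 to 0.36, adjusted p = 0.23, limma), so adjacent ligand genes differed in what was measured. The values of the 7 ligands that did not pass lay between −0.18 (Wnt10b) and 0.37 (Wnt9a), and among them Wnt2, Wnt2b and Wnt16 had mean signals under 100 in both groups.

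**Figure D2:**
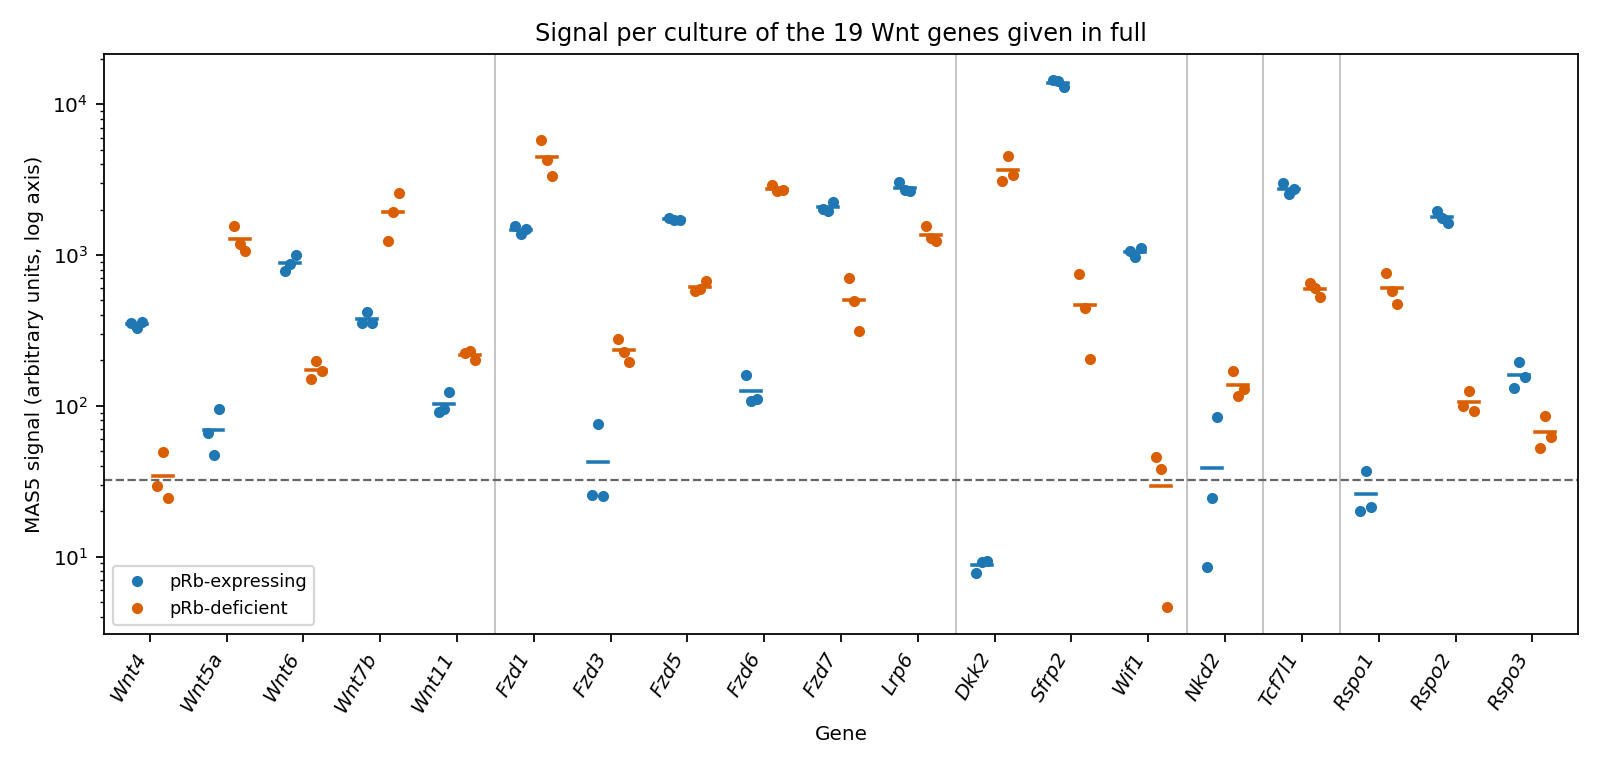
MAS5 signal (log axis, arbitrary units) in each culture for the 19 Wnt genes that passed, differed at least 2-fold and had a mean of at least 100 in the higher group, with a horizontal bar at the mean of the 3 cultures and a dashed line at a signal of 32, the floor. For none of the 19 genes does a point of one group lie among those of the other.

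Among the genes that passed and had a promoter window, Wnt11 alone held letters of a motif searched. Such windows, 250 bases before to 50 bases after a transcription start, come from RefSeq on build GRCm38.p6 and were found for 30 of the 48 genes, 38 windows in all. The letters CTTTGAA and CTTTGAT, taken for TCF and LEF factors, and TTTCGCGC and TTTGGCGC, taken for E2F factors, which pRb binds, were searched on both strands. No letters of one motif overlapped those of the other. The TCF/LEF letters were in 3 of the 38 windows (Wnt11, Dkk1 and Wnt5b), and 8.65% of all 32851 windows held them. The E2F letters were in 1 of the 38, and in 0.813% of all windows. The Wnt11 windows are shown because they hold 1 match of each kind, printed in capitals, the TCF/LEF letters lying on the minus strand. The matches begin 51 bases before the first start and 160 bases before the second. A match is only a run of letters and shows no binding.
Wnt11 first window, chr7:98834862-98835161, + strand: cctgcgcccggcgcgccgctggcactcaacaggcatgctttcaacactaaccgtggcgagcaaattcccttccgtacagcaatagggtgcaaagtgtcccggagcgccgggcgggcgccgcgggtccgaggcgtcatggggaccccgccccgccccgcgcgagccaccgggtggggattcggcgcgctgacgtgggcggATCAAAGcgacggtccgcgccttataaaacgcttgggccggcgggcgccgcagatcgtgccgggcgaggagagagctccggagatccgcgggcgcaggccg
Wnt11 second window, chr7:98838595-98838894, + strand: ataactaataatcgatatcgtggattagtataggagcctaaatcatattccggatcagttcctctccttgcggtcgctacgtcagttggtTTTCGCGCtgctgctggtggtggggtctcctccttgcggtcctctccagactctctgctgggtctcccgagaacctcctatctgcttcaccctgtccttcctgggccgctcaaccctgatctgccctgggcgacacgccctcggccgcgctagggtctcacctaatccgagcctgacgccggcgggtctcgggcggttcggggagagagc

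Receptors held the most genes that passed, 8. Of 11 tested, 3 Frizzled genes were higher (Fzd1, Fzd3 and Fzd6), 5 genes were lower (Fzd2, Fzd5, Fzd7, Fzd8 and Lrp6) and 3 did not pass. The share that passed was 72.7%, against 41.9% of all genes. The signals of the groups did not overlap for 10 of the 11 (90.9%), against 52.4% of all genes. Frizzled receptors span the membrane and bind Wnt through a cysteine-rich domain outside the cell. Fzd6, which acts in planar cell polarity, had signals of 159.6, 107.8 and 110.8 in pRb-expressing and 2917.4, 2656.5 and 2699.8 in pRb-deficient cultures. The cultures of each group lay close together and the groups far apart. This was a 22.2-fold difference (log2 fold change 4.47, standard error 0.16, adjusted p = 6.26e-06, limma). A second Fzd6 probe set passed at 3.22 and a further one did not, at −0.22 (adjusted p = 0.418, limma). Fzd3, a relative of Fzd6 in polarity and axon guidance, read 25.6, 76.0 and 25.1 against 277.4, 226.7 and 194.8. It was at least 5.40-fold higher, or 2.43 on the log2 scale (standard error 0.37, adjusted p = 0.00235, limma). The second brightest Fzd3 probe set gave 0.65 and did not pass (adjusted p = 0.126, limma), while dimmer ones passed at 1.44 and at least 0.96. Fzd1 had 1546.6, 1371.7 and 1488.5 in pRb-expressing and 5757.0, 4257.3 and 3358.0 in pRb-deficient cultures. It was thus already bright on the control arrays and 2.96-fold brighter without pRb (log2 fold change 1.57, standard error 0.18, adjusted p = 0.000711, limma), with 1.66 for a second probe set.

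Fzd7 and Fzd5 were the Frizzled genes with the greatest decreases. Fzd7, often the main receptor of canonical signals in stem and progenitor cells, read 2015.5, 1947.0 and 2236.0 in pRb-expressing and 700.3, 498.2 and 312.3 in pRb-deficient cultures. The log2 fold change was −2.11 (standard error 0.27, adjusted p = 0.00101, limma), and the second probe set fell by at least 2.0 on that scale. Fzd5 had signals of 1761.4, 1698.2 and 1713.9 against 577.6, 597.9 and 672.7. Replicates varied little in both groups, and the fall of 1.49 on the log2 scale had a standard error of 0.08 (adjusted p = 2.81e-05, limma). Both genes lie on chromosome 1, whose median change was −0.50, and with chromosome medians subtracted the brightest probe sets of both still passed. The second Fzd5 probe set passed as fitted (−0.92, adjusted p = 0.00797, limma) but not after subtraction (−0.42, adjusted p = 0.133, limma).

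Lrp6, the co-receptor that starts the canonical signal, had signals of 3028.3, 2700.0 and 2662.1 in pRb-expressing and 1557.4, 1303.2 and 1231.1 in pRb-deficient cultures. Every pRb-deficient value was below every pRb-expressing one, by 2.06-fold on average (log2 fold change −1.04, standard error 0.11, adjusted p = 0.000372, limma). Of its 2 probe sets 1 passed, the other giving −0.75 (adjusted p = 0.197, limma). Lrp6 lies on chromosome 6, the chromosome with the lowest median (−0.58). Its relative Lrp5 was dim in both groups, with mean signals of 29.7 and 39.6, and did not pass. Fzd2 fell by 0.97 and Fzd8 fell by 0.47 on the log2 scale (adjusted p = 0.000617 and 0.0435, limma), and all 3 probe sets of Fzd2 passed as lower. Fzd2 lies on chromosome 11, whose median change was −0.52. With that subtracted, its brightest probe set still passed (−0.45, adjusted p = 0.02, limma). The other Fzd2 probe sets then did not pass (−0.31 and −0.08, adjusted p = 0.103 and 0.763, limma). Fzd8 lost its call without pRb-expressing replicate 1 or 2 or pRb-deficient replicate 2 or 3, and with median centring, quantile normalization, no filter or no intensity trend. Ror2, the kinase receptor of Wnt5a, read 261.3, 349.5 and 332.9 against 390.7, 428.3 and 598.0. Its groups did not overlap, but the log2 fold change of 0.57 missed the threshold (95% interval 0.11 to 1.04, adjusted p = 0.0613, limma).

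Among 10 secreted antagonists and the Dkk receptor Kremen1, 1 gene was higher (Dkk2), 3 were lower (Sfrp2, Wif1 and Sostdc1) and 7 did not pass. The share that passed was 36.4%, against 41.9% of all genes. The 3 changes of greatest size among all Wnt genes tested were in this group. Dkk2, a secreted ligand of Lrp co-receptors that can inhibit or weakly activate the canonical signal, read 7.8, 9.2 and 9.4 in pRb-expressing and 3114.5, 4537.0 and 3385.4 in pRb-deficient cultures. It was below the floor of 32 in all pRb-expressing cultures and bright in all pRb-deficient ones. The difference was at least 113-fold (log2 fold change at least 6.83, standard error 0.16, adjusted p = 1.52e-06, limma). All pRb-expressing values were set to 32 for the fit, so the standard error and p-value hold no spread of that group. Dkk2 had 1 probe set, so no second measurement on the array bears on it. Dkk1 stayed dim in both groups (means of 44.6 and 38.1), and Dkk3, which does not bind the Lrp co-receptors as Dkk1 does, had means of 4399 and 3642 (log2 fold change −0.28, 95% interval −0.58 to 0.02, adjusted p = 0.137, limma).

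Sfrp2, a soluble protein with a Frizzled-like domain that binds Wnt, had signals of 14355.1, 14342.8 and 12931.8 in pRb-expressing and 745.7, 443.6 and 203.3 in pRb-deficient cultures. All 3 pRb-deficient cultures were far below the others and differed among themselves. The difference was 34.1-fold (log2 fold change −5.09, standard error 0.42, adjusted p = 0.000152, limma). Wif1, which binds Wnt ligands through its WIF domain, read 1064.1, 976.2 and 1105.8 against 45.9, 38.2 and 4.6. It was at or near the floor without pRb, at least 27.4-fold lower (log2 fold change −4.77, standard error 0.18, adjusted p = 7.62e-06, limma). Sostdc1, a relative of sclerostin that binds bone morphogenetic proteins and Lrp6, was between 60.6 and 67.1 in pRb-expressing cultures and at or below 7.1 in all pRb-deficient ones, at least 2.01-fold lower (adjusted p = 0.000915, limma), from a dim signal. The second Sostdc1 probe set overlapped between the groups and did not pass (log2 fold change −0.72, adjusted p = 0.203, limma). Sfrp4 did not pass (log2 fold change 0.02, 95% interval −0.36 to 0.40, adjusted p = 0.931, limma). Sfrp1 varied widely within both groups, with 128.8, 225.8 and 310.0 against 137.1, 23.7 and 231.1, and its log2 fold change of −1.05, with 1 signal raised to 32, had an interval of −2.77 to 0.67. Sost and Frzb had mean signals under 30 in both groups.

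The promoter windows of Dkk2, Sfrp2 and Wif1 are shown, since these 3 genes had the greatest changes in either direction. CpG dinucleotides, the sites of DNA methylation in mammals, are in capitals. The Dkk2 window holds 11, the Sfrp2 window 22 and the Wif1 window 25, where the median was 23.5 over the 38 windows of Wnt genes and 7 over all windows. Methylation was not measured in these cultures, and neither motif searched was present in the 3 windows.
Dkk2 promoter window, chr3:132085042-132085341, + strand: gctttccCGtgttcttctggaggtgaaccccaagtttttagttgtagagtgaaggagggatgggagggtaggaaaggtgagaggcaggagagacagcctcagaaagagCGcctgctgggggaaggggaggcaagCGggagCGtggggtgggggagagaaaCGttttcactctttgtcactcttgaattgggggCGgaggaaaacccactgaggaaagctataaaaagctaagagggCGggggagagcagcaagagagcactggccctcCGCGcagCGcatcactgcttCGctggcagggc
Sfrp2 promoter window, chr3:83766071-83766370, + strand: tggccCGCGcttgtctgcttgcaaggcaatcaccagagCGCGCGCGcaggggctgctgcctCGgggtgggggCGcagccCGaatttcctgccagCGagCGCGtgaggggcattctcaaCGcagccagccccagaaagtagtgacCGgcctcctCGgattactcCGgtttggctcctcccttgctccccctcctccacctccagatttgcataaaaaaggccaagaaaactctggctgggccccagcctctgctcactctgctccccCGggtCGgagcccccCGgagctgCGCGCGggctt
Wif1 promoter window, chr10:121033754-121034053, + strand: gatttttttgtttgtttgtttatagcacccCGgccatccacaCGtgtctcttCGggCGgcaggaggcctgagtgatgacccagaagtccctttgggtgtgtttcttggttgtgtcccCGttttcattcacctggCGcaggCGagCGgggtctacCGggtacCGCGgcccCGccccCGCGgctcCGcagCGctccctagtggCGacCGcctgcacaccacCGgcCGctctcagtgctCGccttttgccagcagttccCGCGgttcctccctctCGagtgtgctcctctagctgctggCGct

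R-spondins, which amplify Wnt signals, moved in opposite directions. Of the 3 R-spondins and 2 Lgr receptors tested, Rspo1 and Lgr4 were higher, Rspo2 and Rspo3 were lower, and Lgr5 did not pass. Rspo1 had signals of 20.0, 36.7 and 21.3 in pRb-expressing and 761.2, 579.3 and 472.0 in pRb-deficient cultures. It was close to the floor in the first group and clearly above it in the second, at least 17.7-fold higher (log2 fold change 4.15, standard error 0.22, adjusted p = 2.73e-05, limma). Rspo2 showed the reverse, with 1943.1, 1746.6 and 1638.9 in pRb-expressing and 99.9, 125.6 and 92.9 in pRb-deficient cultures. That was 16.8-fold lower (log2 fold change −4.07, standard error 0.14, adjusted p = 5.65e-06, limma), while its second, dimmer probe set gave −0.32 and did not pass (adjusted p = 0.544, limma). Rspo3 read 130.4, 194.1 and 154.8 against 52.3, 85.6 and 62.4. Its groups did not overlap either (log2 fold change −1.27, standard error 0.26, adjusted p = 0.00858, limma). Lgr4, a receptor of R-spondins, had means of 1116 ± 61.1 (SD, n = 3) and 1367 ± 53.7 (SD, n = 3). This small rise of 0.29 on the log2 scale passed (adjusted p = 0.0188, limma), but not without pRb-expressing replicate 1 or 2 or pRb-deficient replicate 2. The Rspo1 window, shown with its 29 CpG dinucleotides in capitals as that of another gene with a large rise, held neither motif.
Rspo1 promoter window, chr4:124986180-124986479, + strand: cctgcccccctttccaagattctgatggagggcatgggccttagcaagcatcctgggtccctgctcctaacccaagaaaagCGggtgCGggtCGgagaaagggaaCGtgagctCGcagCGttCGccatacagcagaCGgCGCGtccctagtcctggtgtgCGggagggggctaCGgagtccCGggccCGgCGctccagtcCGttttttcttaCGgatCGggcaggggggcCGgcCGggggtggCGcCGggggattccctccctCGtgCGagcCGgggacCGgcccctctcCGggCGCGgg

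Inside the cell, 2 of 4 regulators were higher and 2 of 3 TCF/LEF factors were lower. Axin2, a scaffold of the β-catenin destruction complex and a feedback target of canonical signalling, read 229.6, 253.0 and 237.7 in pRb-expressing and 452.8, 547.4 and 337.4 in pRb-deficient cultures. All pRb-deficient values were above the pRb-expressing ones, 1.82-fold on average (log2 fold change 0.87, standard error 0.19, adjusted p = 0.0106, limma). A dimmer Axin2 probe set gave 0.60 and did not pass (adjusted p = 0.272, limma). Axin1, its constitutive counterpart, had means of 1109 ± 34.0 (SD, n = 3) and 1186 ± 9.26 (SD, n = 3) and did not pass. Nkd2, an inhibitor that binds Dishevelled, had 8.5, 24.6 and 83.6 against 170.0, 115.7 and 128.7, so the pRb-expressing cultures spread across the floor. It was at least 3.09-fold higher (adjusted p = 0.0192, limma), but did not pass without pRb-expressing replicate 1 or 2 or pRb-deficient replicate 1, and 0 of its 3 other probe sets passed in limma (1 at an unadjusted p under 0.05). Its relative Nkd1 did not pass with its brightest probe set (log2 fold change 0.75), although a dimmer pair passed as higher (at least 1.1 and at least 0.95).

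Tcf7l1, a TCF factor known mostly as a repressor, had signals of 3002.1, 2546.0 and 2721.7 in pRb-expressing and 649.5, 601.4 and 528.7 in pRb-deficient cultures. The groups were well apart, 4.65-fold lower without pRb (log2 fold change −2.22, standard error 0.10, adjusted p = 1.56e-05, limma), and the second probe set gave −3.94. Tcf7l2 read 1368.9, 1137.7 and 1277.6 against 866.3, 870.8 and 572.4. It fell by 0.73 on the log2 scale (standard error 0.18, adjusted p = 0.0161, limma), and 3 of its 4 probe sets passed as lower, but the brightest did not pass without pRb-expressing replicate 1 or 3. Lef1 had means of 201 ± 41.8 (SD, n = 3) and 177 ± 31.9 (SD, n = 3), which overlapped.

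Other probe sets of the same genes gave a second reading. The 48 symbols had 100 probe sets, of which 91 were tested, 20 passing as higher and 22 as lower. Of the 25 genes that passed, 19 had more than 1 tested probe set. In 11 of these 19 another probe set passed in the same direction in limma, and in 0 in the opposite direction. Of the 29 other probe sets of these genes 2 had the opposite sign, 0 of them at an unadjusted p under 0.05. The 6 genes that passed on 1 tested probe set alone were Wnt11, Dkk2, Sfrp2, Wif1, Rspo1 and Rspo3.

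**Figure D3:**
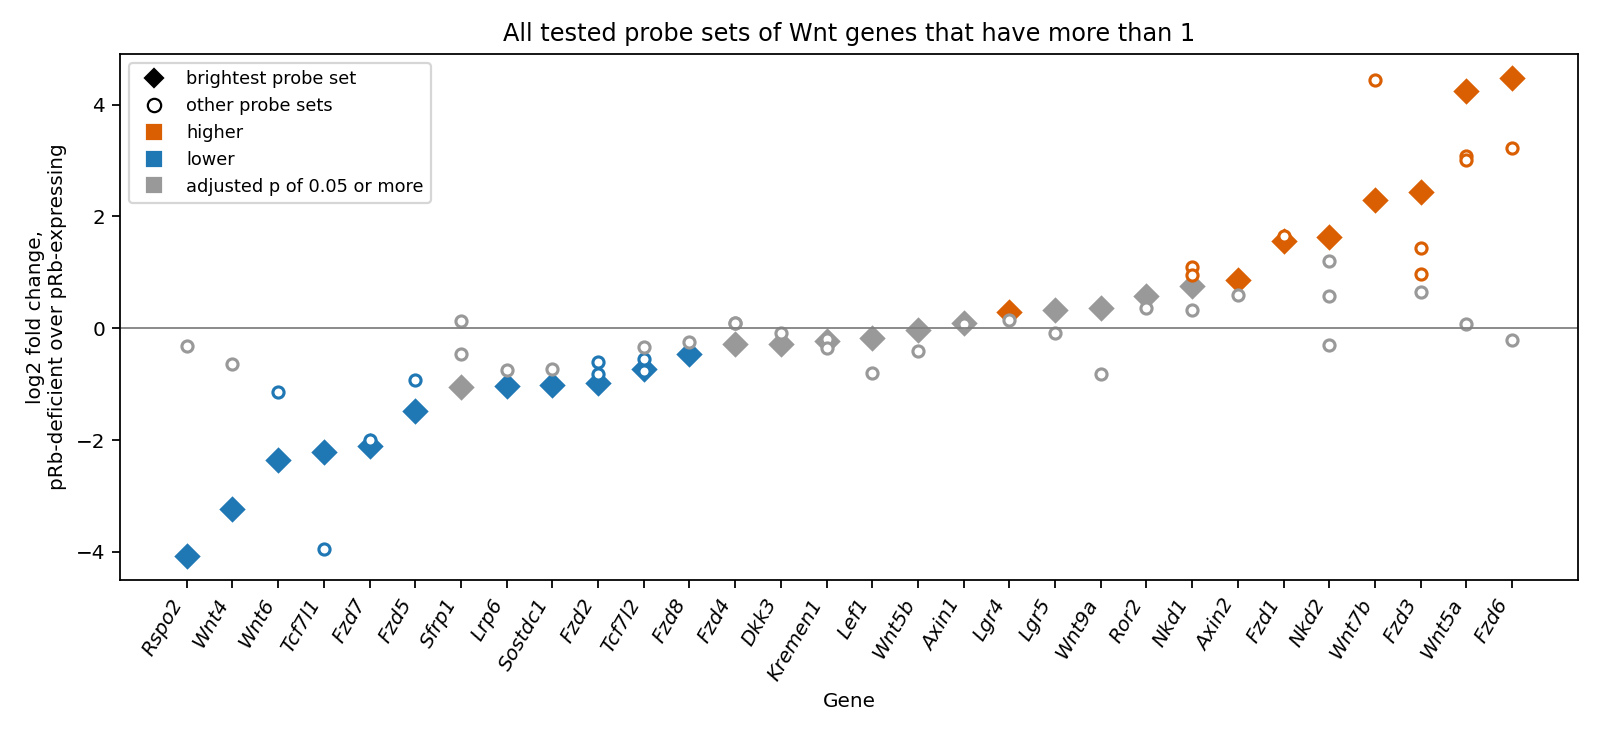
Log2 fold change (y axis) of every tested probe set of the 30 Wnt genes that have more than 1, with a filled diamond for the brightest probe set and open circles for the others, coloured where the probe set passed an adjusted p under 0.05. No coloured circle lies on the opposite side of 0 from a coloured diamond.

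Replicates were further apart in pRb-deficient cultures. The standard deviation of log2 signals was larger there in 16 of the 25 genes that passed (64.0%, against 60.5% of all genes), with a median of 0.26 against 0.12 in pRb-expressing cultures, and of 0.18 against 0.13 over all genes. Replicates 1 and 3 stood at the ends of the pRb-deficient group for 12 of the 25 (48%), close to the 48.3% of all genes, and Sfrp2, Fzd7, Fzd1 and Wnt7b were among them. The stress gene Ddit3, named after its values were seen, also had these replicates at the ends, with 7892.2, 2513.5 and 1210.5 in pRb-deficient replicates 1, 2 and 3 and 1138.1 to 1183.9 in pRb-expressing cultures. Over the 7 stress and early response genes, Jun, Egr1, Hspa1a and Hspa1b passed as higher and Fos as lower, and the summed signals were 11929.4 to 14720.5 in pRb-expressing and 23208.8 to 29276.5 in pRb-deficient cultures. The part of these genes in the values of the Wnt genes was not tested.

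A further 62 genes of the pathway, from ligand secretion to nuclear co-factors and planar polarity, were listed with earlier results of these data known. Of the 60 tested, 12 passed as higher and 16 as lower, so 46.7% passed, near the 41.9% of all genes. Those that passed and differed at least 2-fold made up 25.0%, against 15.6% of all genes. The lowest adjusted p belonged to Ryk, a receptor for Wnt5a with an inactive kinase domain, whose signals were 3137.9, 3218.9 and 3147.8 in pRb-expressing and 7258.2, 7140.0 and 6667.3 in pRb-deficient cultures (adjusted p = 2.75e-05, log2 fold change 1.15, limma). Dvl1, a Dishevelled protein that relays the signal from Frizzled, had 918.4, 933.2 and 998.5 against 2794.6, 3026.0 and 2542.2 (log2 fold change 1.55, adjusted p = 2.81e-05, limma). Neither gene's groups overlapped. The kinase Csnk1e, which phosphorylates Dishevelled, and Tle4, a co-repressor of TCF factors, were also higher (1.13 and 2.25). The receptors Ror1 and Ptk7 were lower (−1.85 and −1.18). By step, 1 of 6 other receptors was higher and 3 were lower, while of 17 genes of the Dishevelled and destruction complex list 3 were higher and 5 lower. Of the 6 other Wnt ligands 0 passed in limma (1 at an unadjusted p under 0.05, and 1 passed with chromosome medians removed), and their signals were at or below 228.0 on all arrays. Ctnnb1, which encodes β-catenin and was named after its values were seen, had signals from 13205.1 to 13737.4 over all 6 arrays (log2 fold change −0.01, adjusted p = 0.945, limma). With the median of its chromosome subtracted it was −0.28 and passed as lower (adjusted p = 0.013, limma).

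Of 24 genes tested from a list of reported targets of canonical signalling, 8 passed as higher and 6 as lower. The share that passed was 58.3%, against 41.9% of all genes. This list too was chosen with earlier results of these data known, so its share is only descriptive. The list mixes targets from several tissues, and its members answer to other signals too. The cell adhesion gene Nrcam had signals of 10.3, 28.3 and 8.9 in pRb-expressing and 767.7, 765.7 and 679.4 in pRb-deficient cultures, at least 23.0-fold higher (adjusted p = 5.26e-06, limma). The gap junction gene Gja1, the growth factor gene Vegfa and the AP-1 genes Jun and Fosl1 were higher, with log2 fold changes of 1.68, 1.83, 2.45 and 3.29. Ccn5, a secreted matrix protein gene, was lower, with 3048.5, 2782.3 and 2477.7 against 379.9, 395.8 and 279.2 (log2 fold change −2.99, adjusted p = 2.17e-05, limma). The genes of the pathway's own feedback, named after their values were seen, did not share a direction. Axin2 and Notum, which encodes an enzyme that inactivates Wnt ligands, were higher (0.87 and 1.55), Rnf43, a ubiquitin ligase that removes Frizzled receptors, fell by at least 1.4 with every pRb-deficient signal under 32, and Znrf3 and Apcdd1 did not pass.

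**Figure D4:**
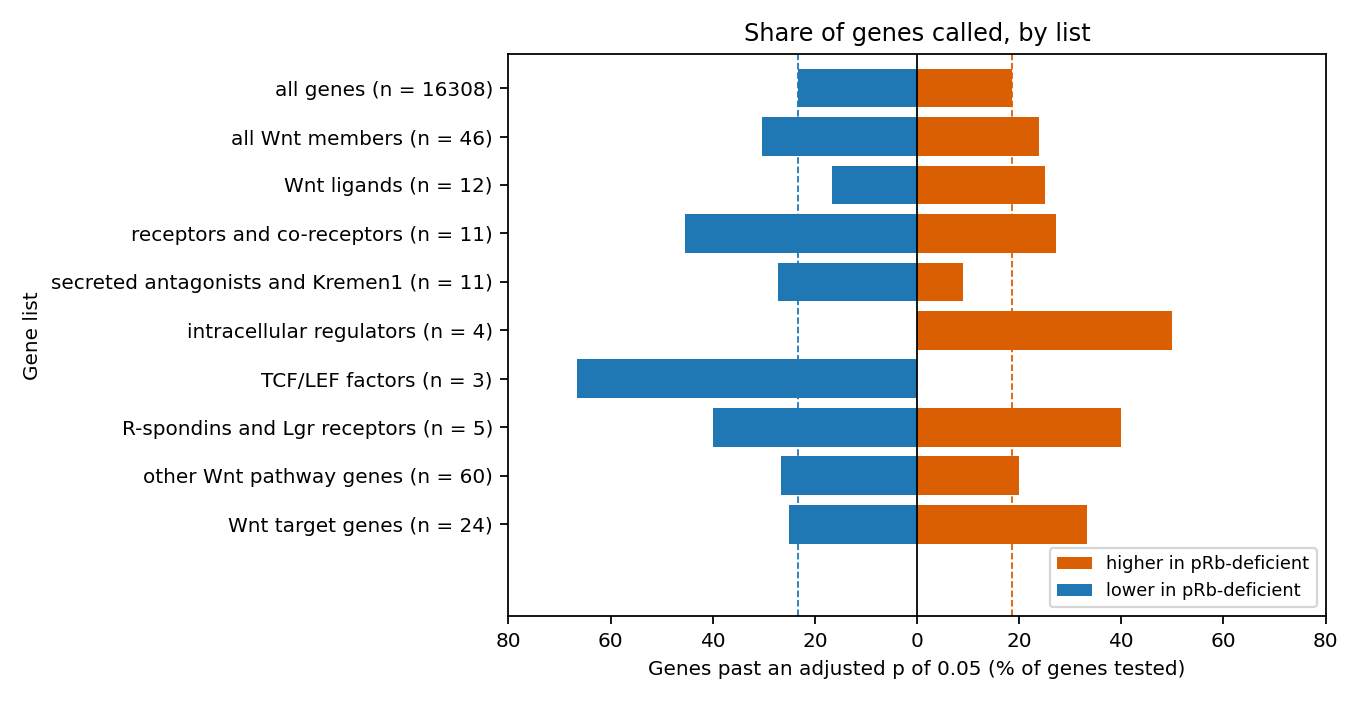
Share of tested genes (x axis, percent) that passed an adjusted p under 0.05 in limma as higher (to the right) or lower (to the left) in pRb-deficient cultures, by list, with dashed lines at the shares over all genes (18.5% and 23.4%). Receptors reach a total of 72.7% (8 of 11) and secreted antagonists with Kremen1 36.4% (4 of 11), and several lists hold 5 genes or fewer.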

How the data were processed

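Biotin-labeled RNA of 3 pRb-expressing and 3 pRb-deficient MC3T3 cultures was hybridized to mouse genome arrays, 1 array per culture. The deposited values are MAS5 intensities on a linear scale, which the authors scaled to a trimmed mean of 500 per array. Affymetrix Expression Console 1.1 is named in the submitters' notes on processing. The trimmed mean was recomputed here as 500.0 on every array, and median signals lay between 107.7 and 119.5. The number of arrays limits the precision.

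Of 45101 probe sets, 64 controls and 6610 at or below 32 on all arrays were left out, and 38427 were tested. Values under 32 were set to 32, and log2 signals were fitted in limma 3.58.1 under R 4.3.3 (lmFit, eBayes with an intensity trend) with group as the only term. P-values are two-sided, with Benjamini-Hochberg adjustment over all 38427 probe sets and a threshold of 0.05. Folds are ratios of geometric means after the floor, and "at least" marks those in which an array of the dimmer group was at or below 32. The array's annotation table gave 34945 probe sets 1 symbol, 932 several and 9160 none. The study names no genome build, so RefSeq (GRCm38.p6) was used only for names, chromosomes, gene order and promoter windows. Chromosome medians were taken over genes whose mean signal reached 200.

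The members and lists were chosen with earlier results of these data known. Values per array are given for Wnt genes past the threshold with a change of at least 2-fold and a mean of at least 100 in the higher group, and for up to 6 further pathway genes and 6 target genes with the lowest adjusted p. Outside this rule, they are also given for Axin2, Tcf7l2, Wnt10a, Ror2, Sfrp1 and Ddit3. Replicate numbers were not taken as pairs, because same-numbered arrays were nearly uncorrelated once group means were removed (0.02, −0.03 and 0.06). Alternatives covered the floor, filter, scaling, trend, array weights, replicate block, left-out arrays, probe set choice, a minimum change of 2-fold and removal of chromosome medians. The fit was also run on simulated data with few changed probe sets and the same spread in both groups. That run did not cover the unequal spread or the many changed genes of these cultures.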

Additional observations from a re-analysis of the deposited data

How the results depend on the processing

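Of the 25 Wnt genes that passed, 13 (Wnt4, Wnt5a, Wnt6, Wnt7b, Fzd5, Fzd6, Fzd7, Dkk2, Sfrp2, Wif1, Tcf7l1, Rspo1 and Rspo2) passed in the same direction in all 18 settings other than the choice of probe set. A test against a minimum change of 2-fold left 5 higher and 8 lower Wnt genes, 2 higher and 3 lower pathway genes, and 6 higher and 1 lower target genes. With the second brightest probe set, 5 Wnt genes were higher and 6 lower among the 30 genes that have one, where the brightest gave 8 and 11, and of 36 pathway genes 10 were higher and 6 lower. With chromosome medians removed, 18 Wnt genes were higher. All 25 calls were kept and 7 were gained (Axin1, Kremen1, Sost, Wnt10a, Wnt16, Wnt2 and Wnt9a), of which Sost, Wnt16 and Wnt2 were above the floor on 1 array each. Sost and Kremen1 changed sign there, to 0.48 and 0.30. With the replicate block, 12 Wnt genes were higher and 13 lower, and no count of calls moved by over 1.5 times. Of the 25, Fzd8 lost its call with the block and under the settings given beside its values. Leaving out each array gave 9 to 12 higher and 12 to 14 lower Wnt genes. Of the 21 Wnt genes that did not pass, 11 passed in at least 1 of the 18 settings, Ror2 in 5 of them, and values of genes past the threshold in neither fit changed sign 20 times. Signal near the floor limits the dim genes, since 10 Wnt genes had means under 100 in both groups and 1 of them, Sostdc1, passed.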
